A study of Mus musculus with 2 samples.

Results

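ATP-binding cassette (ABC) genes were described in CMT167R cells given a compound that the labels call PKCi, set against untreated CMT167R cells. The members were the protein-coding genes whose symbols begin with Abc, a subfamily letter from a to g and a digit. The deposited table held 50 such genes among 54532 genes. The series comprised 2 poly(A) RNA libraries. The PKCi library came from cells kept for 24 h with PKCi at 50 nM, and the CON library came from untreated cells. Both came from CMT167R, which derives from a mouse lung carcinoma line and which the labels describe as resistant to anti-PD1, an antibody against an inhibitory receptor of T cells. Which compound PKCi is was not given in the sources used here, nor was any vehicle for the untreated cells.

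ABC proteins share an ATP-binding domain. Most of them couple ATP hydrolysis to moving lipids, sterols, peptides, metabolites or drugs across a membrane. Subfamilies A, B, C, D and G hold the transporters. Subfamilies E and F are soluble ATPases that act on ribosomes. Several members of B, C and G pump chemotherapy drugs out of tumour cells, and Abca3 loads surfactant lipids into the lamellar bodies of lung alveolar cells.

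The PKCi library held 16071153 gene counts and the CON library 16090186. Each count was scaled to a common total of 1000000 per library (CPM), so that 1 CPM stood for 16.1 counts in either library. Levels between genes are compared in TPM, the same share of the total after division by the listed gene length. With 1 library in each group, no difference has a replicate check and no p-value is given. The 95% intervals of folds are exact binomial intervals that compare these libraries and cover counting error only. In these bulk libraries, fewer cells with a transcript and less of it per cell cannot be told apart. All 6 epithelial markers examined (keratins, Epcam, Cdh1 and Cldn7) were measured in both libraries and summed to 2035 CPM with PKCi and 1648 CPM in CON. Krt8 and Krt18 made up most of these sums, at 1182 and 765 CPM with PKCi and 933 and 643 CPM in CON. Epcam, Cdh1 and Cldn7 stood at 6.28, 3.36 and 7.40 CPM with PKCi, and 3.48, 2.92 and 6.53 CPM in CON. An extraction protocol in the labels speaks of retinas, which differs from the cell culture described there. The 6 retina markers had 1 count in all with PKCi and 3 counts in CON, and the 6 leukocyte markers had 1 and 0. Fibroblast markers summed to 11.5 CPM with PKCi and 11.9 CPM in CON, with members in both directions (Col1a1 70 counts with PKCi and 143 in CON, Pdgfra 97 and 43, Dcn 17 and 1), and endothelial markers to 1.18 and 0.621 CPM.

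Of the 50 ABC genes, 22 reached 1 CPM in at least 1 library and are called measured below. A further 12 had at least 1 count but stayed under 1 CPM in both libraries, and 16 had a count of 0 in both. On the log2((PKCi + 1)/(CON + 1)) scale in CPM, 3 of the 22 measured genes were at least 2-fold higher with PKCi (13.6%). Over all 12273 measured genes of the table this share was 6.53%. The 3 genes were Abcb1a, Abca7 and Abcc4. None of the 22 was at least 2-fold lower, against 5.13% of all measured genes. At 1.5-fold, 7 were higher (31.8%, against 16.8% of all measured genes) and 2 were lower (9.09%, against 16.7%). The 95% counting interval of the fold lay above 1 for 10 of the 22 (45.5%, against 34.9% of all measured genes). It lay below 1 for 6 (27.3%, against 37.5%) and held 1 for the other 6. Log2 ratios lay above 0 for 13 of the 22 (59.1%), against 49.2% of all measured genes, and below 0 for 9 (40.9%, against 50.8%). The median log2 ratio was 0.15 over the 22 genes and −0.01 over all measured genes.

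**Figure D1:**
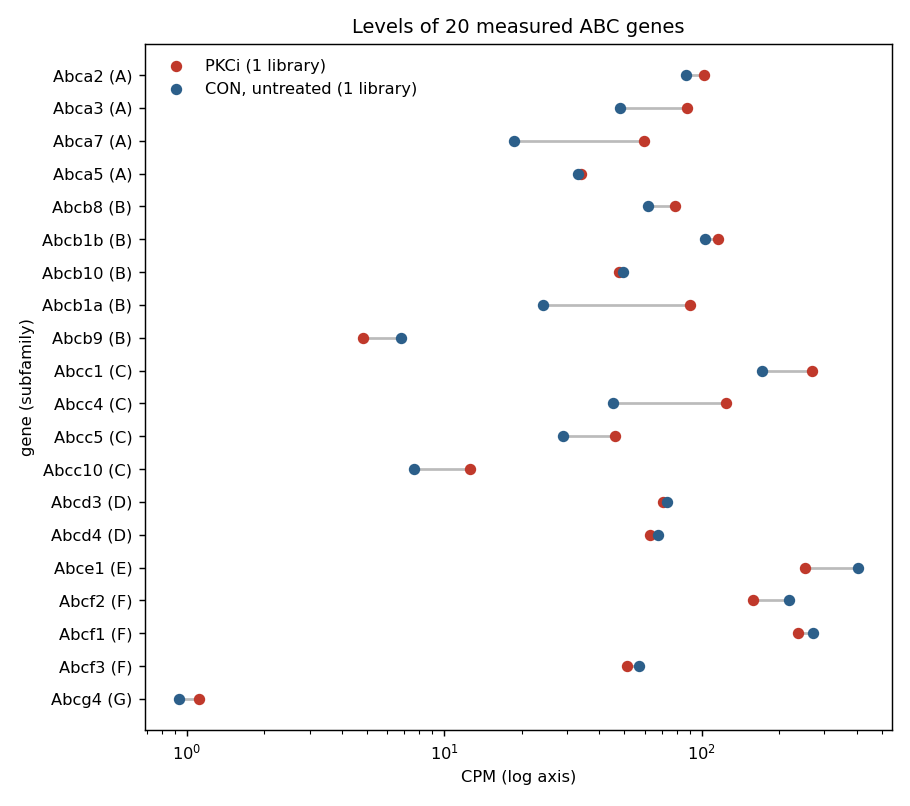
CPM, on a log axis, of 20 of the 22 measured ABC genes in the PKCi library (red) and the CON library (blue), with the subfamily in brackets and 1 library per group. Abcb1a, Abca7 and Abcc4 show the widest gaps, and all 4 genes of subfamilies E and F lie lower with PKCi.

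**Figure D2:**
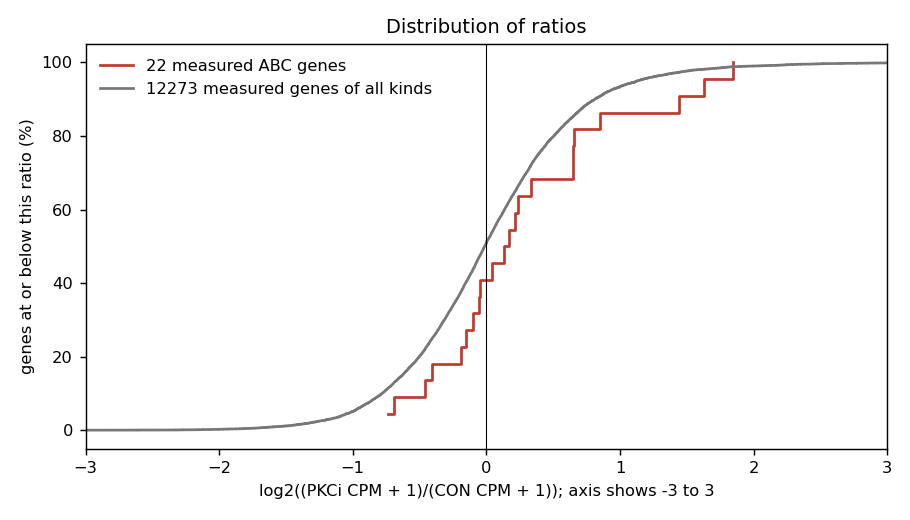
Cumulative share of genes (percent) by log2 ratio of PKCi over CON, with 1 CPM added, for the 22 measured ABC genes (red) and all 12273 measured genes (grey). The ABC genes lie to the right of the whole over most of the range, with medians of 0.15 and −0.01.

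Summed over all 50 genes, ABC transcripts amounted to 1964 CPM with PKCi and 1870 CPM in CON, a ratio of 1.05 (95% interval 1.03 to 1.07). Per gene length the order turned, at 1103 TPM with PKCi and 1144 TPM in CON, a ratio of 0.964. The summed transporters and the summed ribosomal ATPases differed in direction. Among the 18 measured genes outside subfamilies E and F, 13 log2 ratios lay above 0 and 5 below (all measured genes: 49.2% and 50.8%). Without Abce1 and the Abcf genes, the sum was 1265 CPM with PKCi and 917 CPM in CON (1.38-fold higher, 95% interval 1.35 to 1.41). Abce1 and the Abcf genes together made up 699 CPM with PKCi and 953 CPM in CON (1.36-fold lower, 95% interval 1.33 to 1.40). Subfamily C had the largest ratio of the 7 subfamilies' summed CPM, at 453 CPM with PKCi and 253 CPM in CON (1.79-fold higher, 95% interval 1.72 to 1.86). Subfamily A stood at 284 CPM with PKCi and 188 CPM in CON (1.52-fold higher), and subfamily B at 388 and 330 CPM (1.17-fold higher). Subfamily D was at 138 CPM with PKCi and 145 CPM in CON, with an interval of the ratio that held 1 (0.900 to 1.01).

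**Figure D3:**
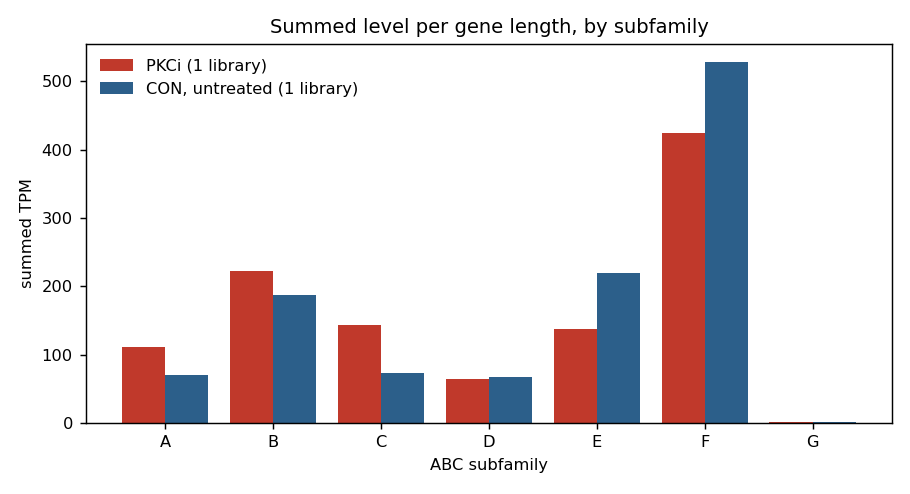
Summed TPM of each ABC subfamily in the PKCi library (red) and the CON library (blue), with 1 library per group and bars from 0. Subfamily F is the tallest in both libraries, at 425 and 528 TPM, and subfamily C is at 143 and 72.3 TPM.

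Every measured drug and organic anion exporter of the cell surface was higher with PKCi. The 6 measured genes of this group (Abcb1a, Abcb1b, Abcc1, Abcc4, Abcc5 and Abcc10) all had counting intervals above 1, against 34.9% of all measured genes. Together with 4 low or unseen members they summed to 659 CPM with PKCi and 381 CPM in CON (1.73-fold higher, 95% interval 1.68 to 1.79). The group was drawn up from known functions with the values already seen, so its direction is a description.

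Abcb1a encodes one of the 2 mouse P-glycoproteins, pumps that export many hydrophobic drugs. It had 1445 counts (89.9 CPM) with PKCi and 391 counts (24.3 CPM) in CON, 3.70-fold higher (95% interval 3.31 to 4.15). Its paralog Abcb1b, which encodes the other P-glycoprotein, had 1863 counts (116 CPM) with PKCi and 1661 counts (103 CPM) in CON, 1.12-fold higher (95% interval 1.05 to 1.20). The intervals of the paralogs' ratios did not overlap. In TPM by listed length, Abcb1a stood at 53.6 with PKCi and 14.4 in CON, and Abcb1b at 47.4 and 42.0. Listed lengths were 5480 bases for Abcb1a and 7990 for Abcb1b, with longest coding transcripts of 4997 and 4306 bases. The order of the paralogs in TPM with PKCi rests on the listed lengths, and Abcb1b had more counts than Abcb1a in both libraries. Abcb1a thus made up 43.7% of the counts of the pair with PKCi (95% exact binomial interval 42.0 to 45.4) and 19.1% in CON (17.4 to 20.8). The paralogs are alike in sequence. Of the 50-base words of the longest coding transcript, 15.5% of Abcb1a's also occurred in Abcb1b and 18.04% of Abcb1b's also occurred in Abcb1a, so part of the reads could have been split between them. The pair as a whole had 206 CPM with PKCi and 128 CPM in CON (1.61-fold higher, 95% interval 1.53 to 1.71). With the pair counted as 1 gene, 2 ABC genes were at least 2-fold higher with PKCi in place of 3.

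Abcb1a (ENSMUSG00000040584) lies on the plus strand of chromosome 5, between 8660077 and 8748575 in the table's GRCm38 coordinates. Abcb1b follows 49.6 kb downstream, and Abcb4 a further 27.4 kb downstream. Abcb4 exports phosphatidylcholine into bile, and it had 3 counts with PKCi and 4 in CON. On the other side of the cluster, Rundc3b was at 4.29 CPM with PKCi and 6.09 CPM in CON, and Slc25a40 at 19.9 and 21.8 CPM. Crot, a peroxisomal carnitine acyltransferase gene beyond Abcb4, was at 37.3 CPM with PKCi and 23.2 CPM in CON (1.60-fold higher). Neighbours of Abcb1a therefore lay on both sides of a ratio of 1. Exons of Gm42686, on the opposite strand, overlap 10.1% of the exon bases of Abcb1a, and Gm42686 had 5 counts with PKCi and 1 in CON.

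Abcc4, an exporter of cyclic nucleotides and prostaglandins, had 2005 counts (125 CPM) with PKCi and 727 counts (45.2 CPM) in CON. It was 2.76-fold higher with PKCi (95% interval 2.54 to 3.01). In TPM by listed length it was the highest of the C subfamily with PKCi, at 63.8, ahead of Abcc1 at 58.3. In CON, Abcc4 was at 23.0 TPM and Abcc1 at 36.9 TPM. The listed length was 15092 bases for Abcc1 and 6389 for Abcc4, with longest coding transcripts of 6792 and 5715 bases. Their order in TPM with PKCi thus rests on the listed lengths, and Abcc1 had more counts than Abcc4 in both libraries. Abcc4 (ENSMUSG00000032849) lies on the minus strand of chromosome 14, between 118482692 and 118706219. Its measured neighbours within 250 kb were Sox21, at 22.1 CPM with PKCi and 18.9 CPM in CON, and the chaperone gene Dnajc3, at 152 and 254 CPM.

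Abcc1, which exports glutathione conjugates and leukotrienes, had the most counts of the transporters in both libraries. It stood at 4330 counts (269 CPM) with PKCi and 2757 counts (171 CPM) in CON, 1.57-fold higher (95% interval 1.499 to 1.65). Abcc5, an exporter of organic anions, had 741 counts (46.1 CPM) with PKCi and 464 counts (28.8 CPM) in CON, 1.60-fold higher (95% interval 1.42 to 1.80). Abcc10, related to Abcc1 and able to export taxanes, had 202 counts (12.6 CPM) with PKCi and 123 counts (7.64 CPM) in CON, 1.64-fold higher (95% interval 1.31 to 2.07). The 3 intervals overlap one another, and none reaches the lower end of the interval of Abcc4.

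Other exporters were at or near 0. Abcg2, the breast cancer resistance protein gene, had a count of 0 in both libraries, which allowed a level of up to 0.187 CPM with PKCi and 0.186 CPM in CON (3 counts). Abcc3 had 6 counts with PKCi and 1 in CON, and the interval of their ratio held 1. Abcc2, the canalicular anion exporter of liver, had 1 count in each library. Abcc12 had 3 counts with PKCi and 0 in CON. Of the remaining C members, the sulfonylurea receptor gene Abcc9 had 0 counts with PKCi and 1 in CON, and Abcc8 and Abcc6 had 0 in both. The potassium channel genes Kcnj8 and Kcnj11, whose products pair with sulfonylurea receptors, also had 0 in both libraries.

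**Figure D4:**
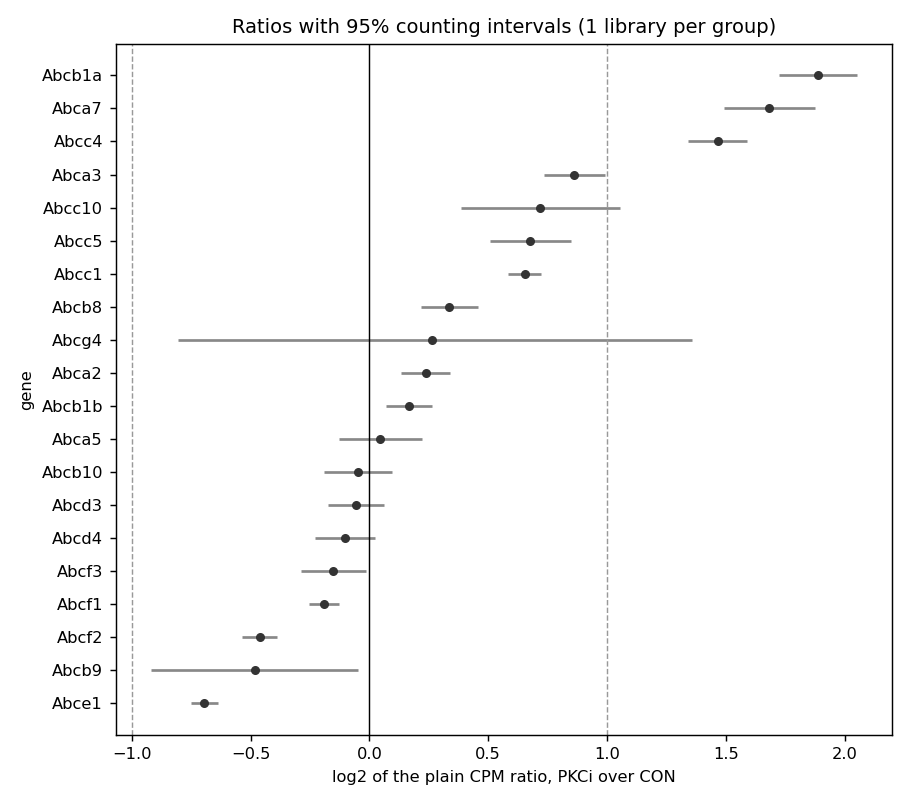
Plain CPM ratio of PKCi over CON on a log2 axis for 20 of the 22 measured ABC genes, with 95% counting intervals and 1 library per group; dashed lines mark 2-fold. Abcb1a, Abca7 and Abcc4 lie wholly above 2-fold higher, and no plotted gene lies beyond 2-fold lower.

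Sequence upstream of the start is shown for the 3 genes at least 2-fold higher and for Abcb1b, so that the paralogs can be compared. The 250 bases before the RefSeq start on GRCm38.p6 are printed from 5′ to 3′ on the gene's strand. Capitals mark matches, on either strand, to any of 6 short motifs: the GC box (GGGCGG), the CCAAT box (CCAAT), AP-1 (TGANTCA), the E-box (CACGTG), TEAD (GGAATG) and the core of the antioxidant response element (TGACNNNGC).
Abcb1a, chr5:8566841-8567090, plus strand: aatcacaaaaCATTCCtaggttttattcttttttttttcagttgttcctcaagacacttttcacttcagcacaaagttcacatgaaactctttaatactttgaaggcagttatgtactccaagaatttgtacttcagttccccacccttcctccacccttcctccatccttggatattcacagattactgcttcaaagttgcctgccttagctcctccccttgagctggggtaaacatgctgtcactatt
Abcb1b, chr5:8797897-8798146, plus strand: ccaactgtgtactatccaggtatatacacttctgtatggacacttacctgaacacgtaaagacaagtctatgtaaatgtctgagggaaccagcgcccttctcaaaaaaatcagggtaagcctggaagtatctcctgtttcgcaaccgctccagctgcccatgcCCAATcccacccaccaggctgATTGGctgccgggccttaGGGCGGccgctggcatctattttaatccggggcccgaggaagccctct
Abca7, chr10:79996244-79996493, plus strand: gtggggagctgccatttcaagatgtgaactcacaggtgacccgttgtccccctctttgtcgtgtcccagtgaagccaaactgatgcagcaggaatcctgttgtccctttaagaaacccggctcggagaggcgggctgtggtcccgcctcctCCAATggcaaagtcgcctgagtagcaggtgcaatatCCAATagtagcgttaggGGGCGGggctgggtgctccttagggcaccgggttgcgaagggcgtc
Abcc4, chr14:118706220-118706469, minus strand: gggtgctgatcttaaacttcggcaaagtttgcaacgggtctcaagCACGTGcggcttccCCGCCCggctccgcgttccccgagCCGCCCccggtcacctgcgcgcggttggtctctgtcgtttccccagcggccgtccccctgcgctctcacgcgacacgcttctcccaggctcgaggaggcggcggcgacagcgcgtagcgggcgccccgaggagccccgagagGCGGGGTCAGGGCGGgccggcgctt

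The upstream stretches of the P-glycoprotein paralogs differed in composition. That of Abcb1a was 40.4% G and C and held 1 TEAD match and none of the other motifs. Its RefSeq start lies 93.0 kb upstream of the start that the deposited table lists for Abcb1a. The Abcb1a stretch falls within the listed span of Rundc3b (8490334 to 8622952), whereas that of Abcb1b directly adjoins its listed start. The stretches of the paralogs are thus unlike in position. The stretch of Abcb1b was 52.8% G and C, with 1 GC box and 2 CCAAT boxes, and that of Abca7 was 58.8% G and C, likewise with 1 GC box and 2 CCAAT boxes. Abcc4 had 72.0% G and C, 3 GC boxes, 1 E-box and 1 antioxidant response core, which directly adjoins a GC box. The median over all RefSeq promoter entries was 52.4%. Among the 16 measured ABC genes with an entry, 10 held a GC box, against 32.7% of all 32851 entries. The entries also cover genes that were not measured, so members and entries are unlike sets. A CCAAT box stood in 3 of the 16 (33.8% of all entries) and an AP-1 match in 0 (6.75%). E-box, TEAD and antioxidant response matches stood in 2 genes each, against 6.02%, 12.6% and 10.2% of all entries. These matches describe letters and show no binding.

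Lipid transporters of subfamily A were measured for 4 of 16 genes, all with log2 ratios above 0, against 49.2% of all measured genes. The counting interval lay above 1 for 3 of the 4, against 34.9% of all measured genes. Abca7, a phospholipid transporter linked to phagocytosis and, in human, to Alzheimer's disease risk, had 961 counts (59.8 CPM) with PKCi and 300 counts (18.6 CPM) in CON. It was 3.21-fold higher with PKCi (95% interval 2.81 to 3.66). Abca7 (ENSMUSG00000035722) lies on the plus strand of chromosome 10, between 79996494 and 80015572, in a gene-dense stretch. The gene just upstream, Cnn2, which encodes the actin-binding protein calponin 2, was at 87.5 CPM with PKCi and 153 CPM in CON. The gene just downstream, Arhgap45, was at 55.9 CPM with PKCi and 40.2 CPM in CON, so the genes on either side differed in direction.

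Abca3, the surfactant lipid transporter, had 1412 counts (87.9 CPM) with PKCi and 778 counts (48.4 CPM) in CON, 1.82-fold higher (95% interval 1.66 to 1.99). Exons of D330041H03Rik, on the opposite strand, overlap 9.75% of the exon bases of Abca3, and that gene had 30 counts with PKCi and 24 in CON. Abca2, a transporter of late endosomes and lysosomes, had 1644 counts (102 CPM) with PKCi and 1397 counts (86.8 CPM) in CON, 1.18-fold higher (95% interval 1.10 to 1.27). It was the highest of subfamily A per listed length in both libraries, at 40.0 TPM with PKCi and 33.8 TPM in CON. Listed lengths were 8346 bases for Abca2 and 8797 for Abca3, with longest coding transcripts of 8033 and 6476 bases. The order of Abca2 and Abca3 with PKCi thus depends on the length used. Abca5, also of lysosomes, had 548 counts with PKCi and 532 in CON, and its interval held 1 (0.914 to 1.16). Abca5 stands at the end of a cluster on chromosome 11 with Abca6, Abca9, Abca8a and Abca8b, all of which were under 1 CPM. Abca9 had 0 counts with PKCi and 12 in CON, with an upper interval end of 0.360 for the ratio. Abca8a had 4 counts with PKCi and 0 in CON, and Abca6 and Abca8b had 0 in both. Abca16 and Abca17 had 1 count each with PKCi and 0 in CON. Abca17 lies 0.9 kb from Abca3 and shared 2.75% of its 50-base words with it.

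The cholesterol efflux pumps were not seen. Abca1, which hands cholesterol to apolipoprotein A-I, and Abcg1, which hands it to mature lipoprotein particles, had a count of 0 in both libraries. The same held for Abca4, Abca12, Abca13, Abca14 and Abca15. Sterol transporters of subfamily G were scarce: Abcg4 had 18 counts (1.12 CPM) with PKCi and 15 counts (0.932 CPM) in CON, with an interval of the ratio from 0.572 to 2.56. Abcg8 had 2 counts with PKCi and 1 in CON, and its intestinal and hepatic partner Abcg5 had 0 in both, as did Abcg3. Regulators of these pumps were present in part. Nr1h2, which encodes the sterol-sensing receptor LXR beta, was at 98.6 CPM with PKCi and 51.7 CPM in CON (1.91-fold higher, 95% interval 1.75 to 2.08). Nr1h3, which encodes LXR alpha, had 1 count with PKCi and 0 in CON. Over the list of sterol regulation and handling, 18 of 20 genes were measured, 0 passed 2-fold in either direction, and the median log2 ratio was −0.01. Of all measured genes, 6.53% passed 2-fold higher and 5.13% lower. Scarb1, a lipoprotein receptor, was 1.74-fold lower with PKCi, the cholesterol-esterifying acyltransferase gene Soat1 1.58-fold lower and Insig1, a brake on sterol synthesis, 1.57-fold lower.

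Transporters of mitochondria were measured at moderate levels. Abcb8, of the inner membrane, had 1261 counts (78.5 CPM) with PKCi and 1000 counts (62.2 CPM) in CON, 1.26-fold higher (95% interval 1.16 to 1.37). Abcb10, which takes part in haem synthesis, had 769 counts with PKCi and 796 in CON, with an interval that held 1 (0.875 to 1.07). All 27 genes of the list of iron-sulfur cluster and haem synthesis were measured. The count past 2-fold was 2 in the higher direction and 0 in the lower, against 6.53% and 5.13% of all measured genes. Ratios lay above 0 for 11 and below for 16, around a median of −0.15, where all measured genes had 49.2% above and 50.8% below. The mitochondrial iron importer gene Slc25a37 was at 733 CPM with PKCi and 224 CPM in CON (3.27-fold higher). Alas1, the first enzyme of haem synthesis, was at 43.2 and 20.3 CPM (2.13-fold higher). Lyrm4, a partner of the cysteine desulfurase Nfs1, was 1.97-fold lower and Cpox, a later enzyme of haem synthesis, 1.84-fold lower.

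Abcd3 and Abcd4 differed little between the libraries. Abcd3, which imports branched-chain and dicarboxylic acyl-CoA into peroxisomes, had 1135 counts (70.6 CPM) with PKCi and 1181 counts (73.4 CPM) in CON (ratio 0.962, 95% interval 0.886 to 1.05). Abcd2, of the same compartment, had 0 counts in both. Abcd4, which releases cobalamin (vitamin B12) from lysosomes, had 1010 counts (62.8 CPM) with PKCi and 1086 counts (67.5 CPM) in CON (ratio 0.931, 95% interval 0.854 to 1.02). A difference was not detectable at this depth for Abcd3 or Abcd4. Lmbrd1, which encodes the partner of Abcd4, was at 76.9 CPM with PKCi and 56.7 CPM in CON. The lysosomal peptide transporter gene Abcb9 had 78 counts (4.85 CPM) with PKCi and 109 counts (6.77 CPM) in CON, 1.40-fold lower (95% interval 1.03 to 1.89). Abcb6 had 14 counts with PKCi and 13 in CON. Of its 50-base words 90.3% also occurred in Gm29253, an overlapping annotated gene on the same strand that had 0 counts in both libraries.

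Of the peroxisome list, 24 of 25 genes were measured, 0 passed 2-fold in either direction, and 17 lay above 0 (median 0.18), where 49.2% of all measured genes did. Acox3, an acyl-CoA oxidase gene, was 1.99-fold higher with PKCi, Crot 1.60-fold, the import receptor gene Pex7 1.56-fold and the phytanoyl-CoA hydroxylase gene Phyh 1.51-fold higher. In the cobalamin list 9 genes were measured and 0 passed 2-fold, with a median of −0.13. Beside the peroxisome and cobalamin lists, 6.53% of all measured genes passed 2-fold higher and 5.13% lower. Tcn2, the carrier of cobalamin in blood, was at 3.11 CPM with PKCi and 1.18 CPM in CON, and its receptor gene Cd320 at 17.7 and 27.1 CPM.

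The 4 ribosomal ATPases were all lower with PKCi, with counting intervals below 1. Of all measured genes, 50.8% had log2 ratios below 0 and 37.5% had intervals below 1. Abcf2, Abcf1 and Abce1 were the most abundant ABC transcripts per listed length in both libraries. Abce1, which splits ribosomes after termination, had 4037 counts (251 CPM) with PKCi and 6541 counts (407 CPM) in CON. It was 1.62-fold lower with PKCi (95% interval 1.56 to 1.68). Abcf2 had 2553 counts (159 CPM) with PKCi and 3522 counts (219 CPM) in CON, 1.38-fold lower (95% interval 1.31 to 1.45). Abcf1, which binds the initiation factor eIF2, had 3814 counts (237 CPM) with PKCi and 4356 counts (271 CPM) in CON, 1.14-fold lower (95% interval 1.09 to 1.19). Abcf3 had 828 counts (51.5 CPM) with PKCi and 921 counts (57.2 CPM) in CON, 1.11-fold lower (95% interval 1.01 to 1.22). Together they held 50.9% of the summed ABC TPM with PKCi and 65.4% in CON. By listed length, Abcf2 stood at 202 TPM with PKCi and 277 TPM in CON, the highest of the family in both libraries. Next in TPM with PKCi came Abcf1 at 176 and Abce1 at 137, while in CON Abce1 at 220 stood above Abcf1 at 199. Listed lengths were 2569 bases for Abcf2, 6004 for Abce1 and 4410 for Abcf1. Their longest coding transcripts had 2569, 3793 and 3161 bases. The order of these genes in TPM thus rests on the listed lengths, and Abcf2 had the fewest counts of them in both libraries.

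The list of ribosome recycling and translation control genes had 20 measured genes, of which 3 lay above 0 and 17 below, with a median of −0.44 (all measured genes: 49.2% above 0, 50.8% below, median −0.01). None of the 20 was at least 2-fold higher or lower on the log2 scale, against 6.53% and 5.13% of all measured genes. Eif2b1 and Eif2b3, subunits of the exchange factor of eIF2, were 2.02-fold and 1.94-fold lower with PKCi by plain ratio. The termination factor gene Gspt1 was 1.82-fold lower, and Hbs1l, a rescue factor for stalled ribosomes, 1.51-fold lower. On chromosome 16, 122 kb from Abcf3, lies Abcc5, which differed from it in direction. The pair of Abcb8 and Abcf2 on chromosome 5, 155 kb apart, likewise held 1 gene higher and 1 lower with PKCi.

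**Figure D5:**
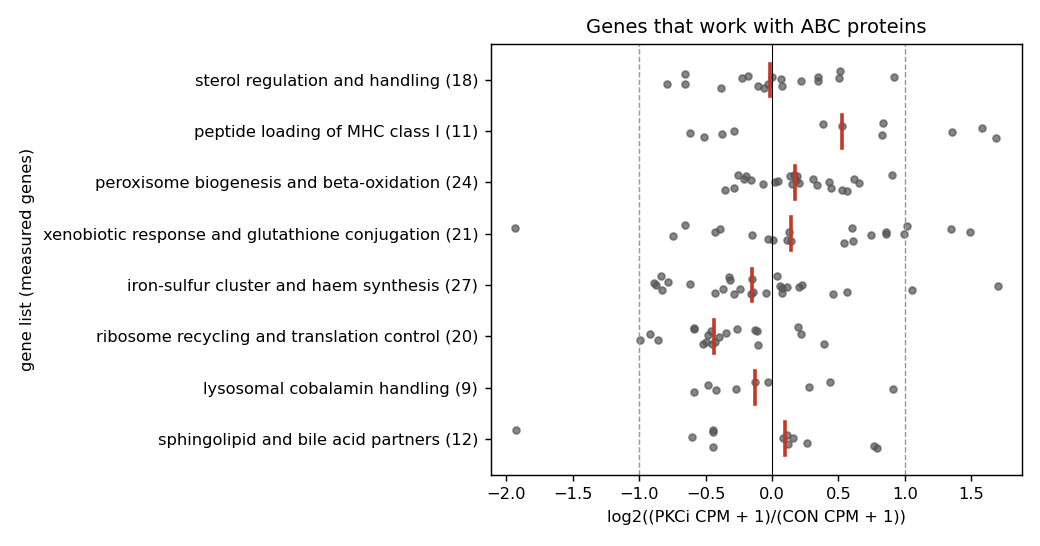
Log2 ratios of PKCi over CON, with 1 CPM added, of measured genes (points, 1 library per group) in 8 lists of genes that work with ABC proteins; red bars are medians and dashed lines mark 2-fold. The ribosome list has the lowest median, −0.44, and the peptide loading list the highest, 0.53.

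Genes of xenobiotic response and glutathione conjugation, which make substrates for some C subfamily exporters, were mixed. In the xenobiotic and glutathione list, 21 of 26 genes were measured. Past 2-fold stood 3 higher genes and 1 lower gene, where 6.53% and 5.13% of all measured genes did so. Of the 21, 14 lay above 0 (median 0.14), against 49.2% of all measured genes. The membrane-bound glutathione transferase genes Mgst1 and Mgst2 were 2.88-fold and 2.06-fold higher with PKCi, and the haem oxygenase gene Hmox1 2.58-fold higher. Ephx1, an epoxide hydrolase, was at 22.5 CPM with PKCi and 89.0 CPM in CON (3.95-fold lower, 95% interval 3.52 to 4.45). Of the sphingolipid and bile acid list 12 genes were measured (median 0.10). Past 2-fold stood 0 higher genes and 1 lower gene, against 6.53% and 5.13% of all measured genes. Spns2, a sphingosine-1-phosphate exporter that is not an ABC protein, had 7 counts with PKCi and 72 in CON (10.3-fold lower, 95% interval 4.74 to 26.5). Sgms2, a sphingomyelin synthase gene, was 1.74-fold higher with PKCi, the lyase gene Sgpl1 1.71-fold higher and Sptlc1, of serine palmitoyltransferase, 1.53-fold lower. Abcb11, the bile salt export pump of liver, had 5 counts with PKCi and 0 in CON, and Abcb5 had 0 in both.

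Some ABC genes carry other symbols. Tap1 and Tap2, which encode the peptide pump of MHC class I loading, had 16 and 21 counts with PKCi, against 15 and 20 counts in CON, and the intervals of both ratios held 1. Cftr, the chloride channel gene of this superfamily, had 0 in both. In the peptide loading list 11 of 13 genes were measured, around a median of 0.53. Of the 11, 7 lay above 0 and 4 below, against 49.2% and 50.8% of all measured genes. The list summed to 3566 CPM with PKCi and 4408 CPM in CON (1.24-fold lower). The chaperone genes Calr and Canx were 1.53-fold and 1.43-fold lower with PKCi. Past 2-fold higher, against 6.53% of all measured genes, were 3 genes, Tapbp, Tapbpl and Nlrc5, at 274, 29.6 and 2.68 CPM with PKCi, against 84.2, 9.20 and 0.435 CPM in CON.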

How the data were processed

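The authors deposited 1 table of whole-number counts per gene, with 1 column for each of the PKCi and CON libraries, and gene symbols, GRCm38 positions, lengths and biotypes. Its name speaks of FPKM, but the values are whole numbers whose columns sum to 16071153 and 16090186, and they were treated as raw counts. The aligner HISAT2 2.0.5 is named together with the builds GRCm38 and mm10, per the submitters' processing notes. How reads were counted, and whether by strand, is not given in the sources used, so reads of a gene and of an overlapping antisense gene may not be separated. Per-sample columns left unassigned numbered 0.

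Each library was scaled to 1000000 counts (CPM). A gene was called measured where either library reached 1 CPM. Log2 ratios took PKCi over CON after adding 1 CPM to both, which shrinks the ratio of low genes. Folds are plain CPM ratios with exact conditional binomial (Clopper-Pearson) 95% intervals, since 1 library per group allows no test. Without molecular identifiers reads can be copies of 1 molecule, so intervals and the floor of 3 counts cover counting error only. TPM used the listed lengths, which for many members exceed the longest coding transcript, so orders and sums in TPM depend on them. Exon overlap and shared 50-base words came from GENCODE M21, which held all 50 members, 48 with identical coordinates. RefSeq promoter entries matched 38 of 50 members by symbol, with the entry nearest the listed start used. The calculation was tested on simulated counts.

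The members and gene lists were chosen with earlier results of these data known. Values are given in full for members past 1.5-fold, the highest per length in each subfamily and Abcb1a, Abcb1b, Abcc1, Abcg2, Abca1 and Abcg1, and for up to 4 genes of each list; 2 measured members that enter the counts and sums are not reported here by name. Other pseudocounts, filters and scalings were tried with edgeR 4.0.16 (TMM) and DESeq2 1.42.0 (size factors), which supplied scaling only. Python 3.11.15, scipy 1.17.1 and pandas 2.3.3 were used.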

Additional observations from a re-analysis of the deposited data

How the results depend on the processing

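No paired analysis was possible because each group held 1 library. Pseudocounts of 0.5 and 5 CPM, no filter or a filter of 5 CPM, and TMM, median-of-ratios and TPM scaling were tried. Under these 7 settings 3 ABC genes passed 2-fold higher with PKCi and 0 passed 2-fold lower, and the median log2 ratio of measured members ranged from 0.08 to 0.17. The count at least 1.5-fold higher was 6 with a pseudocount of 5 CPM and 7 otherwise. With no filter the count at least 1.5-fold lower was 3 in place of 2, as Abca9 then entered. No scaling moved the median of all measured genes by over 0.1. The summed ratio of all members was 0.964 with TPM scaling in place of 1.05. In TPM, Abce1 and the Abcf genes made up 50.9% of the sum with PKCi and 65.4% in CON. With a pseudocount of 5 CPM the log2 ratio was 1.45 for Abca7 and 1.70 for Abcb1a. Counts past 2-fold in 6 of the partner lists moved by 1 gene under some settings. The xenobiotic list had 4 higher with a pseudocount of 0.5 CPM and with TPM scaling and 2 with a pseudocount of 5 CPM, in place of 3. The peptide loading list had 2 higher in place of 3 with a pseudocount of 5 CPM, a filter of 5 CPM or TPM scaling. The ribosome list had 1 lower gene with a pseudocount of 0.5 CPM and with TMM scaling in place of 0. The cobalamin list had 1 higher with a pseudocount of 0.5 CPM and with TPM scaling in place of 0. With a pseudocount of 5 CPM the iron-sulfur and haem list had 1 higher in place of 2 and the sphingolipid list 0 lower in place of 1, which a filter of 5 CPM also gave. With Abcb1a and Abcb1b as 1 gene, chosen after the data were seen, 2 members were at least 2-fold higher and the median was 0.13. Differences between cultures could not be measured, and folds of genes under about 20 counts are limited by depth.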
